A study of Mus musculus with 12 samples.

Results

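SMC2 cells and Intermediate cells are 2 of the 4 populations that were sorted by flow cytometry from the mouse aorta with its surrounding fat, and their comparison asks how a smooth muscle population differs from a stromal one of the same tissue. The members are 6 of the 12 libraries of the series, 3 labelled SMC2 and 3 labelled Intermediate, chosen by their labels. Both groups came from wild-type CD-1 males aged 13 weeks, with no allele and no agent in either. CD-1 is an outbred strain. The tissue was digested with collagenase and dispase, and poly(A) RNA was turned into amplified full-length cDNA (SMART-Seq v4, a method for few cells). The labels give no sort gates, and any gene behind a gate would differ between the groups by construction. The other populations, SMC1 and Progenitor, have 3 libraries each and are used only to place the genes named. The labels number the libraries of each group Ao1 to Ao3, and the same 3 numbers recur in all 4 populations. What a number marks is not stated, nor whether each library came from separate or pooled animals. A p-value therefore speaks only to variation among these libraries, part of which may be technical.

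Vascular smooth muscle cells form the contractile wall of arteries. Calcium entering through channels in the surface membrane and leaving internal stores activates myosin light chain kinase, myosin then pulls on smooth muscle actin, and potassium channels and cyclic GMP relax the cell. Stromal cells of the outer vessel wall and of perivascular fat build the collagen and elastin matrix, carry growth factor and Hedgehog receptors, secrete complement factors and include precursors of fat cells. Perivascular fat can hold both white and thermogenic fat cells.

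Depth was 13258631 to 21068310 counts in the SMC2 libraries and 16089378 to 19477075 in the Intermediate ones. SMC2 replicate 3 had the least depth and the most genes with a count, 32196 of 33352, against 25880 to 29677 in the Intermediate libraries. The 10 most abundant genes took 6.86% to 7.7% of counts in SMC2 and 13.9% to 14.7% in Intermediate. In CPM, counts scaled to a common library size, Pearson correlations of log2 values across genes were 0.968 to 0.983 between SMC2 libraries, 0.978 to 0.983 between Intermediate libraries and 0.846 to 0.867 across the groups. Genes are not independent replicates, and the correlations describe these libraries only. SMC2 replicate 1 stood somewhat apart from its group. Among the 307 genes that were at least 16-fold lower in SMC2, it had the lowest of the 3 SMC2 values in 269, and its median for these genes was 1.33 CPM against 2.32 and 2.7 CPM in replicates 2 and 3. Among the 445 genes at least 16-fold higher in SMC2, Intermediate replicate 1 likewise had the lowest of the 3 Intermediate values in 268. Its median for these genes was 0.311 CPM against 0.44 and 0.511 CPM in Intermediate replicates 2 and 3. The part of these differences in the results was not tested. Calls without each library are given with the processing limits.

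Of 19016 genes tested, 4078 were called higher in SMC2 (21.4%) and 4403 lower (23.2%) by edgeR's quasi-likelihood test at a Benjamini-Hochberg adjusted p below 0.05. These 2 percentages are the background for every gene list below. At least 2-fold differences made up 14.2% of tested genes on the higher side and 15.4% on the lower. At least 16-fold differences made up 2.34% and 1.61%, which is 445 and 307 genes. The 307 genes summed to 198390 to 235574 CPM in the Intermediate libraries and to 3418 to 6532 CPM in SMC2. The 445 genes summed to 72560 to 103258 CPM in SMC2 and to 1915 to 2131 CPM in Intermediate. Both sets were chosen for this gap, so a small sum in the lower group follows from the choice. The choice does not fix the size of the Intermediate sum of the 307 genes. That sum comes from the values used for the choice, so it only describes these libraries. In bulk samples a lower level in fewer cells and less RNA per cell cannot be told apart, and this holds for every value below. The median log2 difference over all tested genes was 0.04. Genes with a mean below 1 CPM in the higher group made up 235 of the 4078 higher calls and 109 of the 4403 lower calls.

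**Figure D1:**
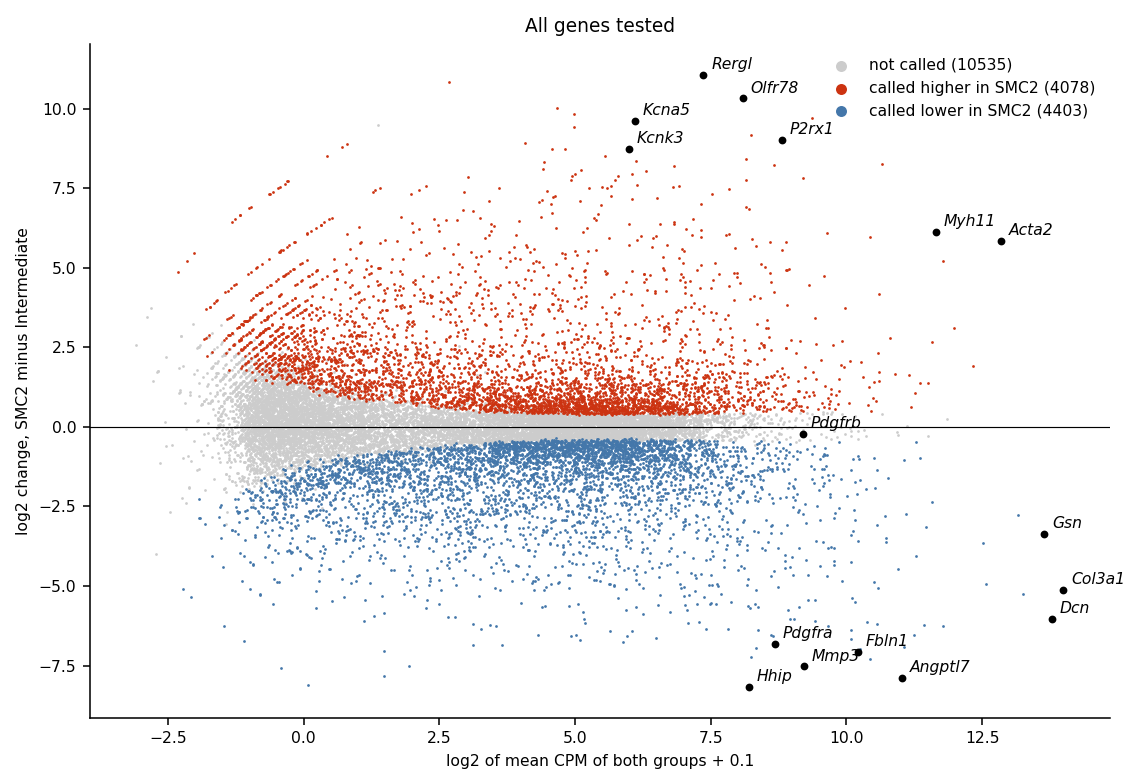
Each point is 1 of the 19016 tested genes, with the log2 of its mean CPM over both groups (plus 0.1) on the x axis and the fitted log2 difference, SMC2 minus Intermediate, on the y axis. Red points were called higher in SMC2 (4078), blue points lower (4403), and named black points include Rergl at 11.07, Hhip at -8.18 and Pdgfrb near 0 at -0.23.

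The label SMC2 matched the contractile genes, and the label Intermediate matched stromal genes. Acta2, smooth muscle actin (chromosome 19, 34241090 to 34255590, GRCm38), was at 16652, 14942 and 11929 CPM in the SMC2 libraries and at 243.3, 299 and 214 CPM in the Intermediate ones. Myh11, the smooth muscle myosin heavy chain (chromosome 16, 14194535 to 14291372), was at 8336, 5636 and 5052 CPM in SMC2 and at 70, 112.3 and 88.5 CPM in Intermediate. The groups did not overlap for either gene, and the log2 differences were 5.85 ± 0.35 (SE, adjusted p = 4.12e-11) and 6.13 ± 0.42 (adjusted p = 1.12e-09), both from edgeR's quasi-likelihood test. Dcn, the matrix proteoglycan decorin (chromosome 10, 97479609 to 97518143), ran the other way. It was at 251.9, 507.4 and 511.9 CPM in SMC2 and at 29091, 28290 and 25851 CPM in Intermediate, a log2 difference of -6.03 ± 0.39 (edgeR, adjusted p = 1.25e-10). The Intermediate label names no known cell type. Its libraries held Pdgfra, Cd34, Ly6a and Pi16 at means of 818.7, 1234, 678.5 and 2143 CPM. These are 4 of the 24 interstitial progenitor genes listed below. The whole list summed to 8808 to 12081 CPM in Intermediate and to 15832 to 18687 CPM in Progenitor.

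**Figure D2:**
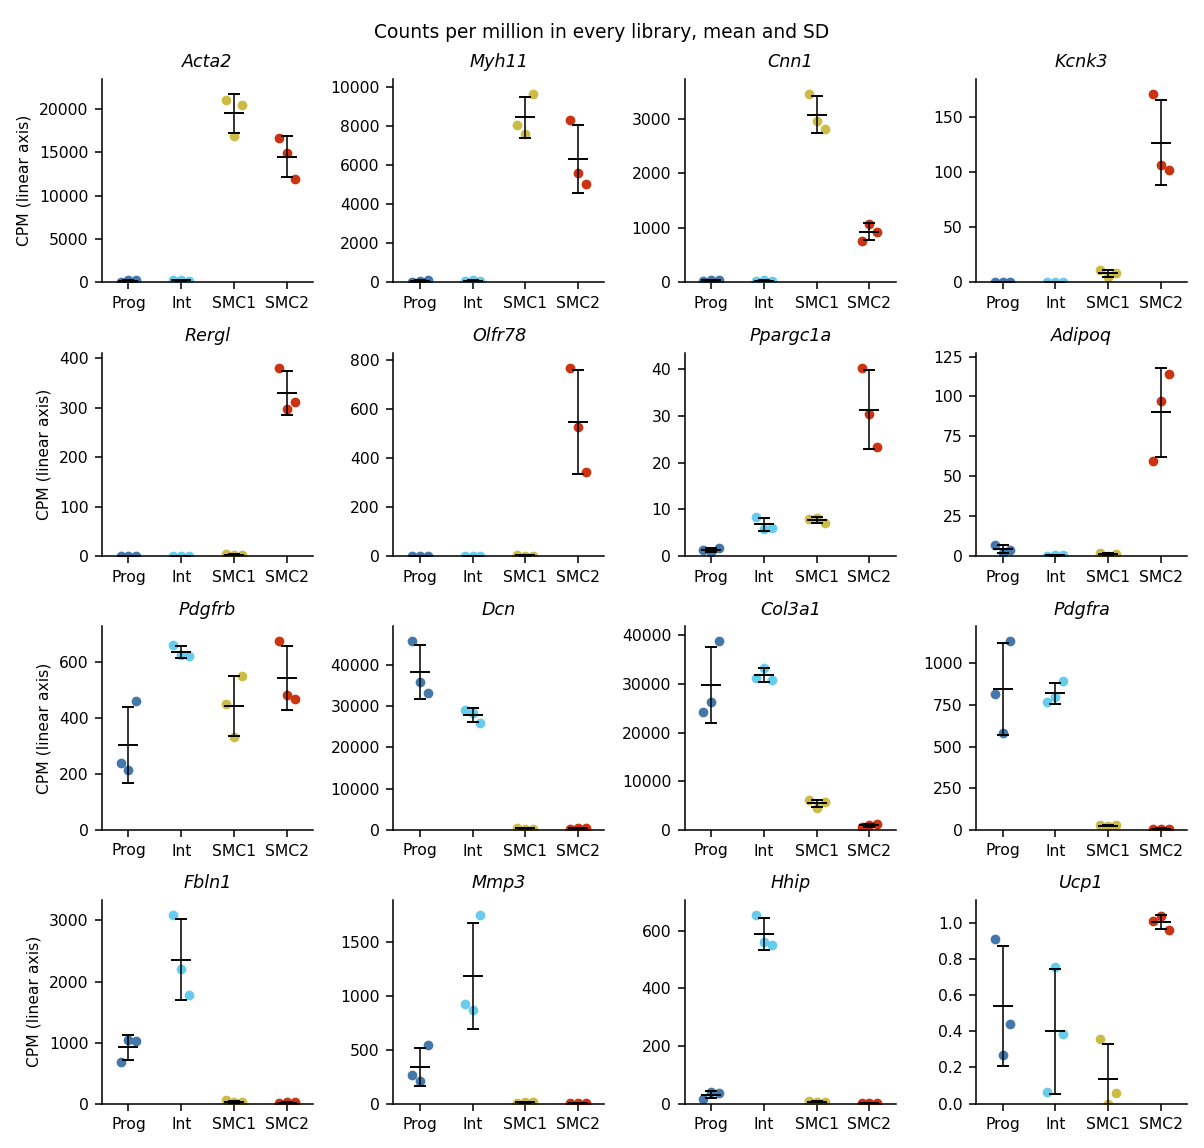
CPM of 16 genes in every library (linear axes, each panel on its own scale), with Progenitor, Intermediate, SMC1 and SMC2 on the x axis, points for the 3 libraries, and black marks for the mean and SD (cut at 0). Rergl, Olfr78 and Adipoq were high in SMC2 alone among the 4 groups, Hhip was high in Intermediate, and Pdgfrb overlapped between SMC2 and Intermediate.

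Markers of other cell types were read in the same libraries. The 26 leukocyte genes summed to 175 to 353.6 CPM in SMC2 and 165.7 to 201.6 CPM in Intermediate, with 1 called higher, 2 lower and 23 not called. Ptprc, the pan-leukocyte marker CD45, was at 8.65, 9.43 and 9.12 CPM in SMC2 and at 9.13, 8.73 and 6.39 CPM in Intermediate. The groups overlapped for Ptprc, and the log2 difference of 0.17 ± 0.30 was not called (edgeR, adjusted p = 0.683). The 19 endothelial genes summed to 574 to 606.7 CPM in SMC2 and 206 to 279.8 CPM in Intermediate, with 3 called higher, 2 lower and 14 not called. Esam, an adhesion molecule that mural cells also make, was at a mean of 390.4 against 14.1 CPM. That difference alone was larger than the gap between the mean sums. Pecam1, which defines endothelium, was at 23, 64.9 and 61.5 CPM in SMC2 and at 58.2, 65 and 50.3 CPM in Intermediate and was not called (adjusted p = 0.597, edgeR).

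Mesothelial and Schwann cell markers did differ between the groups. All 13 mesothelial genes were called lower in SMC2, with sums of 23.5 to 64.1 CPM against 266.4 to 595.1 CPM in Intermediate, and the highest sum belonged to Intermediate replicate 3. Upk3b, a mesothelial membrane protein, was at 59.6, 60.8 and 119.6 CPM in Intermediate and at 5.52, 12.4 and 7.2 CPM in SMC2. Of the 12 Schwann cell and nerve genes 7 were called higher in SMC2 and 1 lower, with sums of 168.7 to 349.7 CPM against 32.1 to 45 CPM, the highest in SMC2 replicate 3. Of 18 striated and cardiac muscle genes 10 were called higher in SMC2 and none lower, led by Myl1 below, while Ckm, the muscle creatine kinase, stayed between 0.994 and 2.17 CPM in all 6 libraries. The higher count of this list was 7 without SMC2 replicate 3 and without Intermediate replicates 1 and 2, and 13 without SMC2 replicate 1. Without Intermediate replicate 1 the list had 1 gene called lower. Of 8 plasma cell genes 2 were called higher and 2 lower, all except Xbp1 and Sdc1, which many cells make, at means below 13 CPM, and of 6 erythroid and platelet genes 2 were called higher and none lower. These higher calls did not hold under every setting. With limma-voom both lists had 0, the plasma cell list also had 0 with no filter, in the 6 libraries alone and without any library other than SMC2 replicate 1, and the erythroid list had 0 without SMC2 replicate 2 and without each Intermediate replicate. The part of these cells in the results was not tested.

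**Figure D3:**
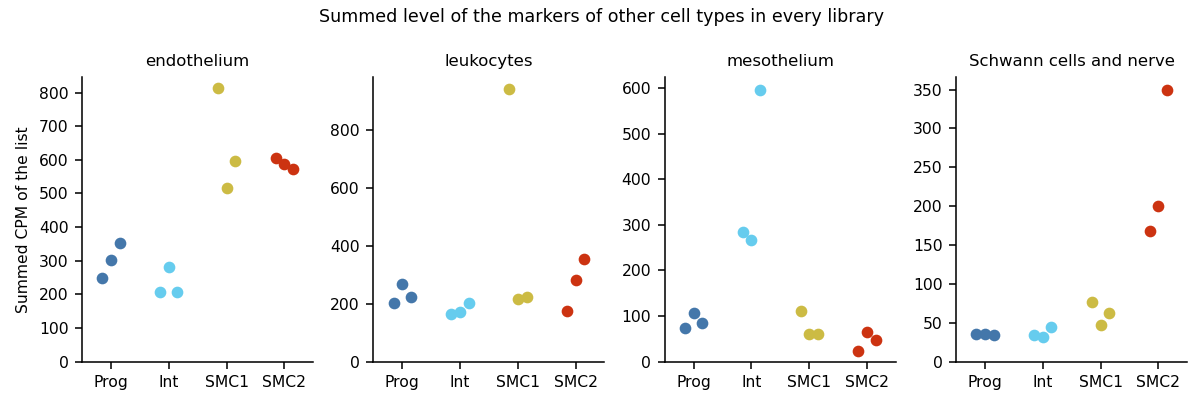
Summed CPM of the endothelial, leukocyte, mesothelial and Schwann cell marker lists (y axes from 0, each panel on its own scale) in the 3 libraries of each of the 4 groups. Mesothelial sums were highest in Intermediate (266.4 to 595.1 CPM) and Schwann cell sums highest in SMC2 (168.7 to 349.7 CPM).

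The contractile list was higher in SMC2 throughout. All 32 genes were called higher, each by at least 2-fold, with a median log2 difference of 4.78, and their summed level was 40069 to 54990 CPM in SMC2 against 2204 to 2560 CPM in Intermediate. The list marks the cell type that the label names, so its direction describes the label. Myl9, the regulatory light chain, was at 8155, 6547 and 5890 CPM in SMC2 and at 186.2, 204.1 and 161 CPM in Intermediate. Tpm2, a tropomyosin, was at 3235, 2484 and 2489 CPM against 40, 50.8 and 40 CPM. Cnn1, calponin, was at 766.6, 1076 and 933 CPM against 19.9, 39.8 and 31.5 CPM. In each of these genes every Intermediate library lay far below every SMC2 library.

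The members differed widely in the size of the gap. Pcp4l1, a small calmodulin-binding protein relative, had the largest log2 difference of the list at 9.18 ± 0.26 (edgeR, adjusted p = 2.23e-15), from 749.6, 547.3 and 506.5 CPM against 0.932, 1.07 and 1.09 CPM. Casq2, which binds calcium inside the store, followed at 8.21 ± 0.28 (adjusted p = 1.75e-14). The smallest gap was that of Srf, the transcription factor that binds CArG boxes, at 47.6, 37.9 and 33.5 CPM in SMC2 and 17.7, 17.5 and 16.7 CPM in Intermediate, a log2 difference of 1.20 ± 0.19 (edgeR, adjusted p = 2.85e-05). Its coactivator Myocd, which is largely restricted to cardiac and smooth muscle, differed by 5.70 ± 0.39 (adjusted p = 3.05e-09), from 143.1, 126.9 and 107.2 CPM against 1.24, 3.52 and 2.49 CPM. Tagln and Pln were also higher, but 67.9% and 64.7% of their exon bases overlap other genes, so their counts are uncertain.

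Since the 32 genes were higher together, their promoters were searched for the CArG box, the site of Srf, in the 250 bases before the start site in RefSeq's promoter table (GRCm38.p6). The motif is its own reverse complement, so both strands were covered. It was present in 439 of 27025 genes, 1.62%. Of the 32 contractile genes 26 had an entry, and 4 of the 26 (15.4%) held an exact match. The sequences of these 4 are shown because they carry the site, 5′ to 3′ on the gene's strand, with the CArG box in capitals.

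Myl9, chr2:156775214-156775463, plus strand: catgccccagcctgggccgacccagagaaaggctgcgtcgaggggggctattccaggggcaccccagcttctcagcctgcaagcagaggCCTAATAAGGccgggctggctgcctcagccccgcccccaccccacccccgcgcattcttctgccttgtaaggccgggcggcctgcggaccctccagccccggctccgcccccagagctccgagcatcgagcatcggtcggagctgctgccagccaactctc
Myl6, chr10:128493010-128493259, minus strand: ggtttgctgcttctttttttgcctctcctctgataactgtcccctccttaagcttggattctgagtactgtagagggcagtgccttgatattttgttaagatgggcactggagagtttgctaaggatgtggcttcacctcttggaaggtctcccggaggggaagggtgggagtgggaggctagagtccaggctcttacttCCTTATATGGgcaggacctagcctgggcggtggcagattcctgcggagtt
Srf, chr17:46556163-46556412, minus strand: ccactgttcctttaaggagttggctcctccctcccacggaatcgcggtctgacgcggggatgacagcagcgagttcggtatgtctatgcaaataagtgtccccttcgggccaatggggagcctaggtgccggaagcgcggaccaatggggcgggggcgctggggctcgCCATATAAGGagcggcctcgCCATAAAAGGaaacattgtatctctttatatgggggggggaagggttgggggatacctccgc
Ldb3, chr14:34588682-34588931, minus strand: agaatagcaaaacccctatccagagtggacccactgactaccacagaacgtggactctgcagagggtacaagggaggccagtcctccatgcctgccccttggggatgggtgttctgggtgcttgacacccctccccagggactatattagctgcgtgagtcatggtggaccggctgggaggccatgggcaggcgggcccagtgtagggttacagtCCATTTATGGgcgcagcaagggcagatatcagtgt

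The box starts 161 bases before the start site in Myl9, 50 in Myl6 and 35 in Ldb3, whose second entry in the table, not printed, has the same box 109 bases before its start, and Srf holds a pair, the first starting 82 bases before. The log2 differences of the 4 genes ran from 1.20 in Srf through 2.31 in Myl6 and 5.22 in Myl9 to 6.22 in Ldb3, a Z-disc protein. None of the 21 collagen, 14 elastic fibre and 12 small proteoglycan genes with an entry held the exact letters in this window. A match is a description of the sequence and shows no binding, and a window without one says only that these letters are not in it.

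By the naming rule (the 12 highest log2 differences at a mean of at least 4 log2 CPM with no overlap between the groups) the genes furthest apart on the SMC2 side were Rergl, Olfr78, Myl1, Sbspon, Olfr558, Kcna5, Gfra3, Pcp4l1, P2rx1, Lrrc10b, Trarg1 and Kcnk3. Rergl, a Ras-family protein (chromosome 6, 139492973 to 139501976), was at 380.7, 296.2 and 311.8 CPM in SMC2 and at 0.0621, 0.251 and 0.128 CPM in Intermediate. Its 7 Intermediate counts against 19467 in SMC2 gave a ratio of 2260 (95% exact binomial interval 1100 to 5610, counting error only). Olfr78 and Olfr558, olfactory receptors that sense short fatty acids and are made by vascular smooth muscle, lie near each other on chromosome 7 (102738511 to 102759471 and 102702215 to 102712064). Olfr78 was at 768.7, 527.2 and 344.6 CPM in SMC2 and Olfr558 at 1666, 1252 and 1048 CPM, while neither passed 1.76 CPM in any Intermediate library. The log2 differences were 10.32 ± 0.57 and 9.69 ± 0.32 (edgeR, adjusted p = 6.64e-10 and 1.32e-14).

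Myl1, a light chain of fast skeletal muscle myosin, was at 63.7, 41.7 and 46.7 CPM in SMC2, while the Intermediate libraries held 2 counts together, a ratio of 1220 (95% exact binomial interval 338 to 10100, counting error only). Gfra3, the receptor of the nerve factor artemin, was at 39, 48 and 101.3 CPM in SMC2 and was highest in replicate 3, the library with the highest Schwann cell marker sum. Its 4 Intermediate counts gave a ratio of 712 (interval 278 to 2610). Sbspon rested on 3 Intermediate counts (ratio 1010, interval 345 to 4900), and 72.8% of its exon bases overlap another gene. Lrrc10b and Trarg1 rested on 5 and 6 Intermediate counts, with ratios of 460 (interval 197 to 1420) and 450 (interval 206 to 1230). In all 12 genes every SMC2 library lay above every Intermediate library, as the rule requires and as held for 26.4% of all tested genes. Every SMC2 library lay below every Intermediate library for 27.8%.

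By the difference of mean CPM, which is not scaled for gene length, the 8 genes furthest apart on the SMC2 side were Acta2, Sparcl1, Myl9, Myh11, Actb, Flna, Rgs4 and Tpm1. Sparcl1, a secreted matrix-associated protein, was at 9392, 6915 and 5466 CPM in SMC2 against 1100, 708.4 and 696.5 CPM. Rgs4, which switches off signals of Gq-coupled receptors, was at 4085, 3217 and 2320 CPM against 12.3, 10.1 and 9.01 CPM, a log2 difference of 8.26 ± 0.29 (edgeR, adjusted p = 1.75e-14). Actb, the actin of all cells, was also higher by 1.90 ± 0.21 (adjusted p = 2.37e-07). SMC2 replicate 1 had the highest SMC2 value of all 8 genes.

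Ion channels separated the groups gene by gene. In the calcium list 19 of 25 genes were called higher in SMC2, 4 lower and 2 were not called (median log2 difference 1.55). Cacna1c, the pore of the L-type channel, was at 104.1, 78.8 and 71.8 CPM against 12.6, 16.1 and 19.7 CPM. Larger gaps were seen for Trpv1, the heat and capsaicin receptor, at 130.5, 83.8 and 88.1 CPM against 0.435, 0.314 and 0.83 CPM, and for the T-type pore Cacna1h, at 51.7, 35.1 and 32.3 CPM against 0.186, 0.126 and 0.575 CPM. The receptor-operated channel Trpc6 differed by 7.0 ± 0.30 (edgeR, adjusted p = 2.14e-13). The lower members were Itpr2, Pkd2, Trpv4 and Orai1. Pkd2, a calcium-permeable channel, averaged 95.4 CPM in SMC2 and 480.7 CPM in Intermediate. Itpr1, a store release channel related to Itpr2, was higher in SMC2 at a mean of 182.5 against 82.4 CPM, opposite to Itpr2 at 10.2 against 59.8 CPM.

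Potassium channels split into 13 called higher, 8 lower and 3 not called of 24 tested (median log2 difference 1.53). Kcna5, a voltage-gated channel (chromosome 6, 126532551 to 126535412), was at 157.6, 142.4 and 110.3 CPM in SMC2, and its 8 Intermediate counts gave a ratio of 827 (95% exact binomial interval 419 to 1920, counting error only). Kcnk3, the acid-sensitive leak channel TASK-1, was at 170.7, 106.1 and 102.2 CPM against 0.186, 0.44 and 0.256 CPM. The inward rectifiers Kcnj12 and Kcnj2 averaged 42.3 and 82.9 CPM in SMC2 and stayed below 1 CPM on average in Intermediate. The ATP-sensitive channel behaved in the opposite way. Its pore Kcnj8 averaged 45.1 CPM in SMC2 and 178.6 CPM in Intermediate, and its sulfonylurea subunit Abcc9 59.1 and 330.5 CPM, log2 differences of -1.99 and -2.48. Kcnt2 and Kcnk6 were lower too, by -4.80 ± 0.25 and -4.38 ± 0.28 (edgeR, adjusted p = 5.03e-12 and 4.74e-11). Kcnma1, the pore of the large-conductance calcium-activated channel, differed by 0.83, and its smooth muscle subunit Kcnmb1 by 5.31 ± 0.32 (adjusted p = 8.42e-11).

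Receptors for vasoactive signals were also divided, with 24 of 43 called higher, 12 lower and 7 not called (median log2 difference 1.24, and 1.88 without Intermediate replicate 1). P2rx1, an ATP-gated channel, was at 1183, 770.9 and 743.2 CPM in SMC2 and below 2 CPM in every Intermediate library. Npy1r, the neuropeptide Y receptor, was at 548.4, 453.7 and 342.1 CPM against 7.77, 6.15 and 6.39 CPM. Ptger3, a prostaglandin E receptor, was at 171.5, 126.1 and 96.7 CPM against 0.311, 0.628 and 0.639 CPM. The endothelin receptors Ednra and Ednrb and the angiotensin receptor Agtr1a were higher in SMC2 by 1.73, 5.64 and 2.58 on the log2 scale. On the lower side stood Ptgfr, the prostaglandin F receptor, at 0.966, 2.07 and 2.46 CPM in SMC2 against 181.8, 178.7 and 177.4 CPM in Intermediate. Its log2 difference was -6.63 ± 0.27 (edgeR, adjusted p = 1.34e-13). Vipr2, a receptor for vasoactive intestinal peptide, and Avpr1a, the vasopressin receptor, were lower as well, with means of 41.1 against 463.3 CPM and 9.04 against 87.3 CPM.

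In the nitric oxide and cyclic GMP list 12 of 23 genes were called higher and 4 lower (median 1.18). The subunits of the nitric oxide receptor guanylyl cyclase, Gucy1a1 and Gucy1b1, were at 799.5, 582.9 and 531.5 CPM and at 199, 170.7 and 135.1 CPM in SMC2, against at most 44.3 and 21.1 CPM in Intermediate. The downstream kinases Prkg1 and Prkg2 averaged 105.4 and 62.5 CPM against 17.2 and 1.34 CPM. The natriuretic peptide receptors did not follow. Npr2, the receptor of C-type natriuretic peptide, was lower in SMC2 at 15.2, 23.4 and 21.2 CPM against 179.1, 171.9 and 152.8 CPM, and Npr1 was not called (log2 difference 0.20 ± 0.31, edgeR, adjusted p = 0.628). Among 18 RGS genes, which shorten G-protein signals, 6 were called higher (Rgs4, Rgs6, Rgs5, Rgs7bp, Rgs16 and Rgs2), 2 lower and 10 not called.

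**Figure D4:**
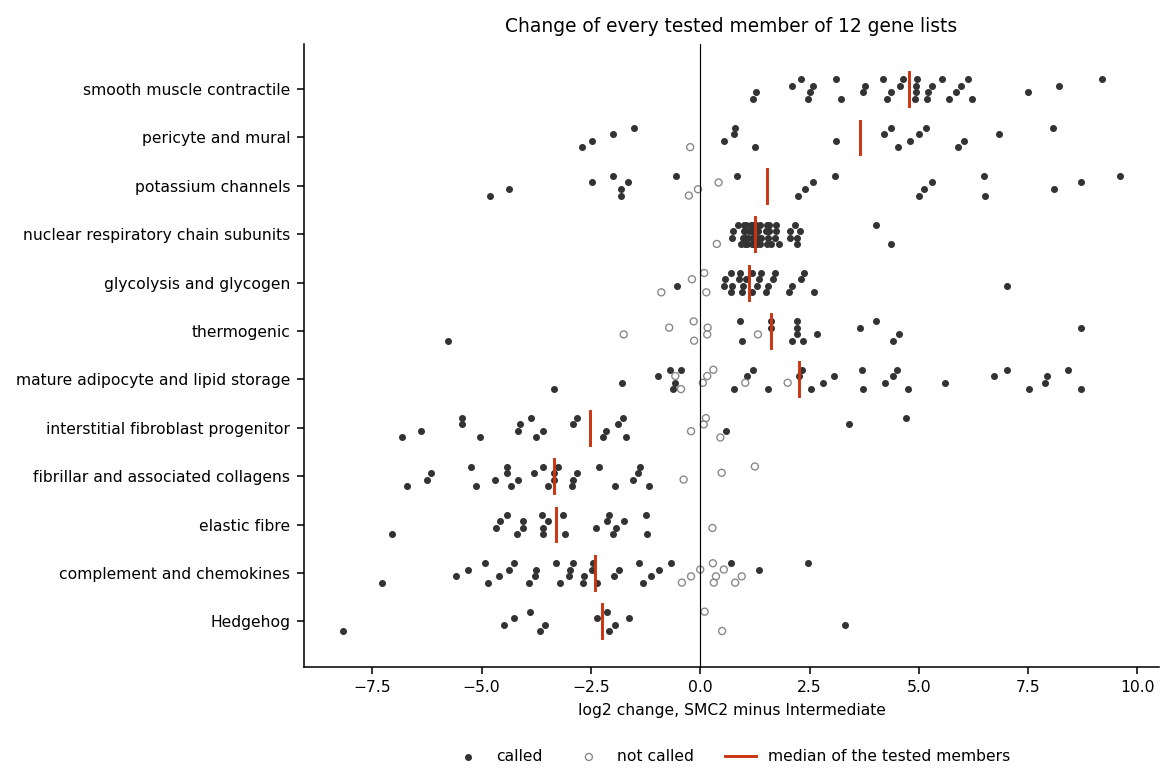
Fitted log2 difference, SMC2 minus Intermediate (x axis), of every tested member of 12 gene lists (rows), with filled points for genes called, open points for genes not called and a red bar at each list's median. The contractile list (median 4.78) and the respiratory chain list (median 1.26) have no member called lower, while the collagen (median -3.34) and elastic fibre (median -3.31) lists have none called higher in the fit of all 12 libraries.

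Pericyte and mural cell genes were mostly higher in SMC2, 15 of 20 with 4 lower and 1 not called (median log2 difference 3.65). Notch3, the mural Notch receptor, was at 594.5, 353.3 and 347.7 CPM against 6.71, 7.22 and 5.81 CPM, and Mcam, the adhesion molecule CD146, at 712.6, 596.8 and 493.6 CPM against 7.89, 12.9 and 9.33 CPM. Higd1b and Cox4i2, mitochondrial proteins typical of pericytes, averaged 68.8 and 31.5 CPM against 0.251 and 1.53 CPM. The 4 lower genes were Anpep, Abcc9, Kcnj8 and Steap4. Pdgfrb, the platelet-derived growth factor receptor of mural cells and fibroblasts, was at 673.1, 482.7 and 468.1 CPM in SMC2 and at 661.7, 624.1 and 621 CPM in Intermediate. The groups overlapped, and the log2 difference of -0.23 ± 0.25 was not called (edgeR, adjusted p = 0.486). Of 18 Notch pathway genes 8 were called higher, 3 lower and 7 not called (median 0.71). A ligand and several target genes were among the higher ones. Jag1, a ligand, averaged 255.9 against 86.8 CPM, and the target genes Hes1, Hey2 and Heyl averaged 253.1, 62.4 and 289.8 against 94.6, 20.3 and 169.3 CPM. Notch2 was not called, at -0.37 ± 0.18 (adjusted p = 0.103).

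Genes of fat metabolism formed a further group on the SMC2 side. Of 37 mature adipocyte and lipid storage genes 23 were called higher, 7 lower and 7 were not called (median log2 difference 2.26). Pparg, the master regulator of fat cells, was at 455.7, 328.7 and 314.9 CPM in SMC2 and at 2.24, 2.32 and 2.24 CPM in Intermediate, a log2 difference of 7.33 ± 0.37 (edgeR, adjusted p = 1.85e-11). Slc2a4, the insulin-sensitive glucose transporter GLUT4, was at 409.8, 275.9 and 264.7 CPM against 2.61, 2.58 and 2.17 CPM, and Trarg1, which regulates its trafficking, at 63.2, 56.5 and 48.5 CPM against at most 0.256 CPM. Lipid droplet and lipolysis genes followed. Plin1, the droplet coat perilipin, was at 80, 54.7 and 48.8 CPM against 0.373, 0.0628 and 0.319 CPM, and Pnpla2, the first triglyceride lipase, at 1007, 690.3 and 622.3 CPM against 52.1, 37.3 and 34.5 CPM. Fabp4, a fatty acid carrier that some endothelial cells also make, was at 1610, 1322 and 1495 CPM against 47.6, 69 and 48.1 CPM.

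Adipoq and Cfd, both secreted by fat cells, ordered the SMC2 libraries differently. Adipoq, adiponectin, was at 59.7, 96.9 and 114.1 CPM in SMC2 replicates 1, 2 and 3 and at 0.373, 0.628 and 0.447 CPM in Intermediate. Cfd, the protease adipsin, was at 426.6, 581.7 and 700 CPM against 0.249, 3.2 and 1.53 CPM. Both were highest in SMC2 replicate 3, as the Schwann cell genes were, while Pparg, Slc2a4, Plin1 and Pnpla2 were highest in replicate 1, as Acta2 and Myh11 were. Fatty acid synthesis was not part of the pattern. Fasn, Acaca, Scd1 and Scd2 were called lower in SMC2, with means of 48.2, 11.6, 46.8 and 101.8 CPM against 77.2, 18, 90.9 and 349.4 CPM, and Acly was not called (0.30 ± 0.20, edgeR, adjusted p = 0.242). The groups overlapped for Acaca, at 12.33, 12.25 and 10.32 CPM in SMC2 against 12.24, 20.16 and 21.59 CPM. The list's 7 lower calls were 5 without Intermediate replicate 1 or 2, and 9 with the replicate block in the 6 libraries. G0s2, an inhibitor of Pnpla2, was lower at a mean of 16.4 against 167.6 CPM.

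Regulators of fat cell formation were mixed, with 13 of 26 called higher, 8 lower and 5 not called (median 0.64). Alongside Pparg, the coactivators Ppargc1a and Ppargc1b averaged 31.4 and 29.4 CPM in SMC2 against 6.81 and 1.34 CPM, and Prdm16, a determinant of brown fat, 49.9 against 3.96 CPM. Cebpa, which sustains Pparg in fat cells, was at 3.73, 3.66 and 3.36 CPM in SMC2 and 3.98, 6.59 and 4.28 CPM in Intermediate and was not called (-0.46 ± 0.33, adjusted p = 0.271). Zfp521, a repressor of fat cell fate, and Klf5 were lower in SMC2, by -2.97 ± 0.21 and -2.56 ± 0.19. Of 23 thermogenic genes 15 were called higher, 1 lower and 7 not called (median 1.63). The higher count was 12 without SMC2 replicate 3 and without Intermediate replicate 1 or 2. Ucp1, the uncoupling protein that defines thermogenic fat, was at 1.01, 1.04 and 0.96 CPM in SMC2 and at 0.0621, 0.754 and 0.383 CPM in Intermediate, and was not called (1.32 ± 0.78, edgeR, adjusted p = 0.182). The single gene lower was Dio2, the deiodinase that activates thyroid hormone, at 2.26, 1.73 and 2.7 CPM against 115.9, 122.6 and 123.2 CPM.

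The respiratory chain was higher in SMC2 almost without exception. Of 53 nuclear-encoded subunits 52 were called higher and Ndufa1 was not (0.38 ± 0.19, edgeR, adjusted p = 0.124). The median log2 difference was 1.26. Cycs, cytochrome c, was at 393.4, 331.3 and 357.2 CPM against 84.1, 68.7 and 69.2 CPM, and Atp5b, of the ATP synthase, averaged 2398 against 725.3 CPM. The largest differences were those of the isoforms Cox4i2 (4.36 ± 0.26) and Cox7a1 (4.01 ± 0.40). The table holds none of the 13 genes of the mitochondrial genome, so they are not analysed here.

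Fuel use genes moved the same way. Of 35 genes of fatty acid oxidation and the Krebs cycle 28 were called higher, 3 lower and 4 not called (median 1.14). Acadm, an acyl-CoA dehydrogenase, was at 326.5, 263.8 and 244.3 CPM against 62.2, 50.1 and 50 CPM, and Idh3a, of the Krebs cycle, at 377.2, 296.8 and 240.3 CPM against 95.2, 73.9 and 70.8 CPM. The carnitine step that brings fatty acids into mitochondria differed from the rest, since Cpt1a and Cpt2 were called lower at means of 79.4 and 41.3 against 154.1 and 60.8 CPM. Of 30 glycolysis and glycogen genes 25 were called higher, 1 lower (Phka1) and 4 not called (median 1.11), and none was called lower without SMC2 replicate 2 or 3 or Intermediate replicate 2. The glycogen synthase Gys1 differed by 2.61 ± 0.22, the glycogen phosphorylase Pygm by 2.11 ± 0.19 and the phosphofructokinase Pfkl by 2.37 ± 0.18 (edgeR, adjusted p = 2.73e-09, 9.89e-09 and 9.43e-10). Hk2, a hexokinase, was not called, at 0.14 ± 0.21 (adjusted p = 0.621). Cytosolic ribosomal protein genes, read as a set outside energy use, had 2 of 34 called higher and 2 lower (median 0.13, and 0.05 and 0.07 without SMC2 replicate 1 and Intermediate replicate 3), shares below the background.

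**Figure D5:**
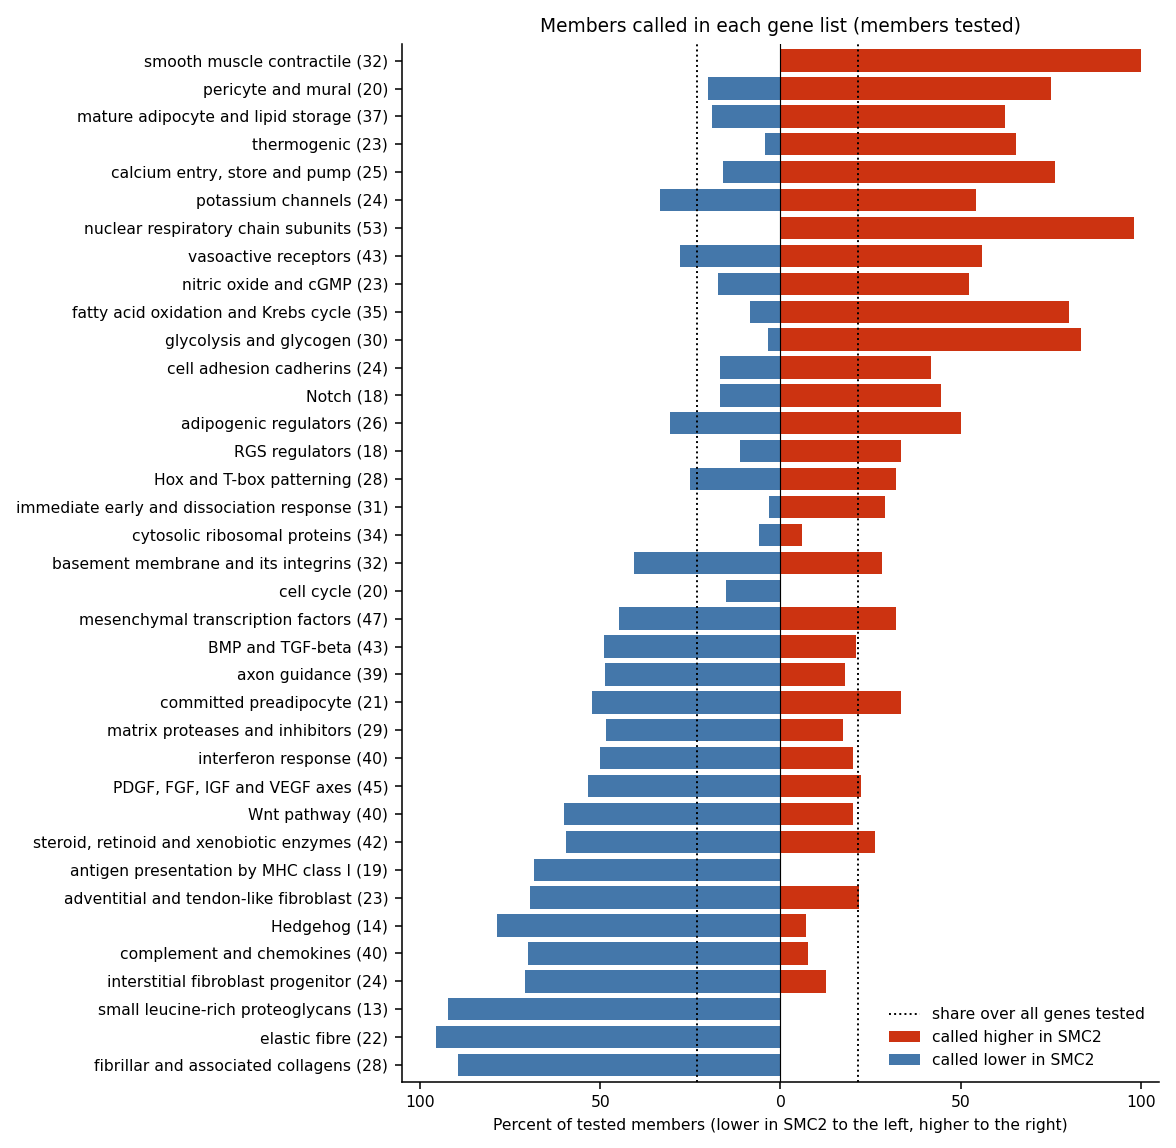
Share of the tested members of each gene list (rows, number tested in brackets) that were called higher (red, to the right) or lower (blue, to the left) in SMC2, in order of the lists' median log2 difference, with dotted lines at the shares over all genes tested, 21.4% and 23.2%. Contractile, respiratory chain and glycolysis lists lie almost wholly to the right, and collagens, elastic fibre and small proteoglycans almost wholly to the left.

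The extracellular matrix dominated the Intermediate side. Of 28 collagens and collagen-processing genes 25 were called lower in SMC2, none higher and 3 were not called (median log2 difference -3.34), and 1 (Col22a1) was called higher without SMC2 replicate 1. Col3a1, of the fibrillar collagens (chromosome 1, 45311538 to 45349706), was at 582.1, 1036 and 1125 CPM in SMC2 and at 31287, 33395 and 30852 CPM in Intermediate, a log2 difference of -5.12 ± 0.30 (edgeR, adjusted p = 1.65e-11). Col1a1 was at 57.6, 99.9 and 118.7 CPM against 8396, 7079 and 5493 CPM. In both genes SMC2 replicate 1 held the lowest value. The enzymes that modify collagen chains were lower by less, Plod1, Plod3, P4ha1 and P4ha2 by -1.38, -1.43, -1.53 and -1.18. Col5a3 was not called (-0.38 ± 0.26, adjusted p = 0.249), and Col2a1 and Col22a1 lay at or below 2.28 CPM in every library.

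Small leucine-rich proteoglycans had 12 of 13 called lower and none higher (median -2.86), and 10 were called lower with RLE factors, in the 6 libraries alone and in 4 of the 6 fits without a library. Lum, lumican, was at 53.1, 76.7 and 90.2 CPM against 6182, 4924 and 5291 CPM. Fmod, fibromodulin, was at 57, 59.9 and 37.6 CPM against 2757, 1904 and 1810 CPM. Aspn, asporin, had the smallest called difference at means of 780.4 and 1095 CPM, -0.49 on the log2 scale. Elastic fibre genes were lower in 21 of 22 (median -3.31). Fbln1, fibulin-1 (chromosome 15, 85205949 to 85286535), was at 9.07, 22.8 and 21.1 CPM in SMC2 against 3089, 2203 and 1784 CPM, and Eln, elastin itself, at 347, 723.1 and 517.3 CPM against 2363, 1706 and 1231 CPM. So the smooth muscle population held less elastin RNA than the stromal one, by -1.74 ± 0.30 (edgeR, adjusted p = 8.34e-05). SMC1, the other smooth muscle population, averaged 4651 CPM of Eln.

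Of 23 adventitial and tendon-like genes 16 were called lower and 5 higher (median -1.99). The higher share was 21.7%, near the 21.4% of all tested genes. The higher genes were Postn, Tnc, Thbs1, Scx and Clu. Postn, periostin, was at 1126, 1471 and 1150 CPM in SMC2 and at 118.6, 114.8 and 113.5 CPM in Intermediate, 3.43 ± 0.23 on the log2 scale (edgeR, adjusted p = 9.55e-11). Tnc, tenascin-C, was at 231.1, 184.7 and 147.5 CPM against 23.2, 24.2 and 26.8 CPM. The same list held Angptl7, a secreted angiopoietin-like protein, at 5.89, 18.7 and 28 CPM in SMC2 against 5103, 3728 and 3572 CPM, a log2 difference of -7.89 ± 0.49 (adjusted p = 1.11e-09).

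Basement membrane genes were mixed, with 9 of 32 called higher, 13 lower and 10 not called (median -0.15, and -0.06, -0.37 and -0.23 without SMC2 replicate 2, SMC2 replicate 3 and Intermediate replicate 1). Lama5, a laminin alpha chain, was at 181.4, 140.5 and 133.9 CPM in SMC2 against 4.79, 7.28 and 6.13 CPM. Lama2, another alpha chain, was at 5.15, 12.8 and 16.3 CPM against 487.2, 607 and 667.3 CPM. Col4a3 and Col4a4, minor collagen IV chains, were lower by -5.39 ± 0.23 and -5.65 ± 0.29, whereas the main chain Col4a2 was not called (-0.57 ± 0.24, edgeR, adjusted p = 0.0584). Itga7, a laminin receptor of muscle, was at 798.1, 576.6 and 535.1 CPM against 7.89, 15.95 and 13.4 CPM, and Sgca, of the sarcoglycan complex, at 110.7, 91.6 and 71.6 CPM against 2.92, 4.4 and 2.49 CPM.

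Matrix proteases and their inhibitors had 14 of 29 called lower, 5 higher and 10 not called (median -0.77, and -1.25 without SMC2 replicate 3). Mmp3, stromelysin-1 (chromosome 9, 7445822 to 7455975), was at 3.96, 6.57 and 8.7 CPM in SMC2 and at 926.3, 869.3 and 1749 CPM in Intermediate. It was highest in Intermediate replicate 3, the library with the highest mesothelial marker sum, and a link was not tested. Mmp2, a gelatinase, was at 30.7, 47.3 and 70.3 CPM against 3092, 1873 and 1760 CPM. The higher genes were Timp4, Adamts4, Adamts9, Adamts1 and Adamts8. Timp4, an inhibitor found in vascular tissue, was at 378.6, 304.8 and 260.3 CPM against 5.72, 4.21 and 5.11 CPM, opposite to its relatives Timp1 and Timp2, which were lower by -4.50 and -3.14. Adamts4, an aggrecanase, was at 505.3, 375.9 and 365.2 CPM against 33.2, 31.6 and 45.5 CPM.

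Hedgehog pathway genes were lower in SMC2. In this pathway a ligand binds the receptor Ptch1 with the coreceptors Boc, Cdon and Gas1, which frees Smo to activate Gli factors, and Hhip, Ptch1 and Gli1 are also targets of the signal. Of 14 genes 11 were called lower, 1 higher and 2 not called (median -2.24). Hhip, the decoy receptor (chromosome 8, 79965851 to 80058006), had the lowest log2 difference of all genes the naming rule covers, -8.18 ± 0.38 (edgeR, adjusted p = 7.27e-12). It was at 1.1, 2.47 and 2.58 CPM in SMC2 and at 653.6, 559.8 and 550.5 CPM in Intermediate. The coreceptor Boc was at 21.5, 22.2 and 20.9 CPM against 574.7, 431.6 and 460.3 CPM. Gli1 was at 1.7, 1.93 and 2.94 CPM against 21.1, 31.9 and 24 CPM, and Ptch1 at 10.1, 11 and 13.2 CPM against 41.1, 48 and 42.8 CPM. The ligand Ihh was the gene called higher, at a mean of 3.2 against 0.315 CPM, and the ligand Dhh and the inhibitor Sufu were not called.

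Wnt pathway genes had 24 of 40 called lower, 8 higher and 8 not called (median -0.94). The ligand Wnt5a was at 1.8, 4.45 and 5.1 CPM in SMC2 against 233.9, 210.7 and 187.5 CPM, and its receptor Ror2 at 5.52, 4.45 and 5.04 CPM against 30.5, 30.3 and 26.9 CPM. Secreted Wnt inhibitors were among both groups of calls. Sfrp2, Sfrp4 and Frzb averaged 21.1, 22.1 and 14 CPM in SMC2 against 2150, 1103 and 349.6 CPM, whereas Sfrp5, Sostdc1 and Wif1 averaged 5.36, 5.04 and 11.3 CPM against 0.084, 0.0834 and 2.47 CPM. Sfrp5 and Sostdc1 rested on 4 Intermediate counts each, with ratios of 61.5 (95% exact binomial interval 23.8 to 227, counting error only) and 57 (interval 22 to 211). The count of higher Wnt genes depended on single libraries, at 5, 5, 4 and 5 without SMC2 replicate 1 and without Intermediate replicates 1, 2 and 3.

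In the BMP and TGF-beta list 21 of 43 genes were called lower, 9 higher and 13 not called (median -0.43). The BMP ligands separated by gene. Bmp4 was at 1.8, 4.79 and 5.88 CPM in SMC2 against 392.3, 320.2 and 295.7 CPM, and Bmp2 at 188.7, 129.9 and 117.7 CPM against 18.6, 9.86 and 11.8 CPM. Bmp6 averaged 69 against 4.59 CPM, higher with Bmp2, while Gdf10 averaged 21 against 1607 CPM. Gdf6, another ligand of the family, was at 0, 0.0494 and 0.42 CPM in SMC2 against 23.6, 14.3 and 13.1 CPM. Its 8 SMC2 counts against 811 gave a ratio of 0.00801 (95% exact binomial interval 0.00344 to 0.0159, counting error only). The receptor Bmpr1a and the ligand Tgfb3 were not called, at -0.15 ± 0.21 and -0.25 ± 0.18 (edgeR, adjusted p = 0.589 and 0.28).

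Of 45 genes of the PDGF, FGF, IGF and VEGF axes 24 were called lower, 10 higher and 11 not called (median -0.88). Of the receptors for PDGF, Pdgfrb was not called (above). Pdgfra (chromosome 5, 75152292 to 75198215) was at 5.8, 7.51 and 8.28 CPM in SMC2 and at 769.8, 794.9 and 891.4 CPM in Intermediate, a log2 difference of -6.83 ± 0.27 (edgeR, adjusted p = 1.08e-13). The ligands Pdgfa and Pdgfb averaged 179.3 and 17.4 CPM in SMC2 against 20.2 and 0.421 CPM, log2 differences of 3.15 and 5.35. Angpt1 and Angpt2, which act on endothelium, were higher in SMC2 by 2.78 and 3.01, at means of 66.1 and 176.5 CPM against 9.63 and 21.9 CPM. Igf1 and Fgf7, growth factors of stromal cells, were lower by -4.68 ± 0.29 and -4.31 ± 0.22 (adjusted p = 4.96e-11 and 2.61e-12).

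Guidance and adhesion genes were mixed. Among 39 axon guidance genes 19 were called lower, 7 higher and 13 not called (median -0.52), with Epha3, an ephrin receptor, at 13.1, 27 and 21.5 CPM in SMC2 against 555.2, 534.2 and 596.2 CPM. Among 24 cadherins 10 were called higher, 4 lower and 10 not called (median 0.71). Cdh6 was at 306.6, 229.4 and 187.7 CPM in SMC2 against 1.06, 1.19 and 1.53 CPM, while Cdh11, the cadherin of fibroblasts, was at 5.25, 9.73 and 8.94 CPM against 343.5, 273.4 and 353.2 CPM. Cdh12 was likewise lower, by -6.03 ± 0.46 (edgeR, adjusted p = 2.23e-08), and Cdh13 was not called (0.08 ± 0.27, adjusted p = 0.83).

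Progenitor genes of connective tissue were mostly lower in SMC2. Of 24 interstitial progenitor genes 17 were called lower, 3 higher and 4 not called (median -2.52). Pi16, which marks reservoir fibroblasts, was at 9.71, 31.3 and 35.6 CPM in SMC2 against 2365, 2309 and 1754 CPM, and Cd34 at 14, 35 and 36.1 CPM against 1487, 1143 and 1071 CPM. Ackr3, a scavenging chemokine receptor, was not called, at 0.13 ± 0.23 (edgeR, adjusted p = 0.685). The committed preadipocyte list had 11 of 21 called lower, 7 higher and 3 not called (median -0.70). F3, tissue factor, was at 22.4, 47.6 and 51.2 CPM in SMC2 against 3756, 2671 and 2520 CPM, and Gdf10 and Clec11a were lower too. Its higher members, Pparg, Dlk1, Fabp4, Sparcl1, Cd36, Lpl and Ptn, include 4 that are also in the adipocyte lists above (Pparg, Fabp4, Cd36 and Lpl).

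Complement and chemokine genes were lower in SMC2 in 28 of 40, higher in 3 and not called in 9 (median -2.41). C7, of the membrane attack complex (chromosome 15, 4988762 to 5063740), was at 9.66, 21.1 and 22.3 CPM in SMC2 against 2768, 2852 and 2658 CPM, a log2 difference of -7.29 ± 0.36 (edgeR, adjusted p = 3.4e-12). Il33, a nuclear alarmin of stromal cells, was at 5.57, 9.78 and 8.64 CPM against 415.4, 348.5 and 379.5 CPM. The 3 higher genes were C6, Cd59a and Il6, and the neutrophil chemokine Cxcl1 was not called (-0.21 ± 0.28, adjusted p = 0.572). Interferon response genes had 20 of 40 lower, 8 higher and 12 not called (median -0.78), and MHC class I presentation genes 13 of 19 lower, none higher and 6 not called (median -1.24). H2-D1, a classical class I chain, was at 823.5, 796.4 and 962.1 CPM against 3342, 2144 and 2348 CPM. H2 genes resemble each other closely, so reads may be divided between them.

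Enzymes of steroid, retinoid and xenobiotic metabolism had 25 of 42 called lower, 11 higher and 6 not called (median -1.24). Fmo2, a flavin monooxygenase, was at 102.5, 239.9 and 168.1 CPM in SMC2 against 4102, 3582 and 3716 CPM, and Hsd11b1, which activates glucocorticoids, averaged 8.43 against 791.2 CPM. On the higher side Cyp2e1, a cytochrome P450, was at 245.3, 288.7 and 321.4 CPM against 4.35, 2.2 and 2.75 CPM, and Pon1, a paraoxonase, at 78.7, 127.2 and 124.7 CPM against 0.311, 0.565 and 0.511 CPM. Both were lowest in SMC2 replicate 1, as Adipoq and Cfd were.

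In the Hox and T-box list 9 of 28 genes were called higher, 7 lower and 12 not called (median 0.32, and 0.20 without SMC2 replicate 1). The T-box factors Tbx5, Tbx3 and Tbx2 carried the largest differences. Tbx5, best known from heart and forelimb (chromosome 5, 119832668 to 119885219), was at 136, 86.9 and 79 CPM in SMC2 against 0.497, 0.44 and 1.02 CPM, a log2 difference of 7.26 ± 0.31 (edgeR, adjusted p = 3.13e-13). Tbx3 was at 163.8, 105.4 and 110.8 CPM against 2.05, 1.38 and 1.15 CPM, and Tbx1 was lower, at a mean of 0.929 against 7.89 CPM. Among Hox genes the called ones were few and low: no Hox gene called in either direction passed a mean of 13.3 CPM in either group. Hoxa5 was not called, at 23.3, 21.7 and 20.3 CPM against 30.1, 25.2 and 23.6 CPM.

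Of 47 other mesenchymal transcription factors 15 were called higher, 21 lower and 11 not called (median -0.36, and -0.17 without SMC2 replicate 3 or without Intermediate replicate 1). Mef2c, a muscle factor, was at 754.4, 603.2 and 427.8 CPM in SMC2 against 74.4, 60.4 and 54.6 CPM. Epas1, the hypoxia factor HIF-2 alpha, was at 370.9, 273.9 and 229.6 CPM against 20.3, 26.6 and 19.9 CPM, and Sox6 averaged 59.8 against 2.89 CPM. The fibroblast factors Prrx2, Tcf21, Hic1 and Osr1 were lower, at means of 0.857, 1.47, 7.42 and 24.2 CPM against 42.4, 14.7, 72.5 and 113.5 CPM. Zeb1, Zeb2, Nr2f2 and Foxc1 were not called, with log2 differences between -0.31 and 0.13.

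Genes that respond quickly to stimulation or to tissue dissociation were mostly not called, 21 of 31, with 9 higher and 1 lower (median 0.22, and 0.14 and 0.12 without Intermediate replicates 1 and 3). Fos was at 4486, 3922 and 3665 CPM in SMC2 and at 4508, 2781 and 2946 CPM in Intermediate. Nr4a2, an orphan nuclear receptor, was higher at 710.4, 528.9 and 475.1 CPM against 102.3, 83.4 and 120.8 CPM, and Atf3 at 1672, 1508 and 1354 CPM against 437.6, 331.5 and 410.8 CPM. The gene lower was Ccn2, the growth factor CTGF, at 407.4, 872.7 and 592.1 CPM against 3551, 1849 and 1615 CPM. Of 20 cell cycle genes 3 were called lower (Mcm3, Rrm2 and Mcm2) and none higher, and 17 were not called. The higher count was 1 without SMC2 replicate 1 and without Intermediate replicate 1.

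The 12 genes furthest to the Intermediate side by log2 difference were Hhip, Angptl7, Mmp3, C7, Tspan11, Fbln1, Tgfbi, Svep1, Smoc2, Gdf6, Pdgfra and Cpz. In all 12 the lowest SMC2 value belonged to SMC2 replicate 1. Smoc2, a calcium-binding matrix protein, was at 19.6, 41.3 and 44.6 CPM in SMC2 against 4809, 4134 and 3793 CPM, and Tgfbi, a matrix adhesion protein, at 8.97, 21.3 and 27.7 CPM against 2938, 2290 and 2052 CPM. Tspan11, a tetraspanin, was at 1.93, 4.35 and 5.82 CPM against 608.5, 639.6 and 550.8 CPM, and Svep1, a large adhesion protein, at 2.49, 6.37 and 6.9 CPM against 621.1, 677.9 and 627.2 CPM. Cpz, a carboxypeptidase that binds Wnt proteins, was at 0.322, 0.988 and 2.04 CPM against 145.8, 111.5 and 91.9 CPM. By the difference of mean CPM the genes furthest apart included Col3a1, Dcn, Gsn, Col1a2, Sparc, Cst3 and Col1a1. Gsn, the actin-severing protein gelsolin, was nearly equal in the SMC2 libraries at 2326, 2241 and 2269 CPM against 27346, 23110 and 19823 CPM.

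The named genes were then read in the other populations of the same fit. SMC2 minus SMC1 shares the SMC2 libraries with the comparison above, and Intermediate minus Progenitor shares the Intermediate ones, so these values are not independent of it. Rergl averaged 2.55 CPM in SMC1 and differed by 7.01, Olfr78 averaged 2.9 CPM and differed by 7.54, and P2rx1 averaged 125 CPM and differed by 2.85 (edgeR, SMC2 minus SMC1, adjusted p = 7.46e-13, 1.05e-08 and 3.35e-09). Between the smooth muscle populations 8 of the 32 contractile genes were called higher in SMC2 and 11 lower (median log2 difference -0.41), where 16.5% and 18.1% of all tested genes were. Cnn1 averaged 925.3 CPM in SMC2 and 3073 CPM in SMC1, and Itga8, an integrin of smooth muscle, 803.2 and 7267 CPM. In Intermediate minus Progenitor 12.7% of all tested genes were called higher and 9.46% lower. Of the 24 interstitial progenitor genes 12 were called lower in Intermediate there and 1 higher (median log2 difference -0.74). Hhip averaged 30.9 CPM in Progenitor and Angptl7 300.1 CPM, log2 differences of 4.25 and 3.78 (edgeR, adjusted p = 4.89e-08 and 6.28e-06). Pdgfra was not called there, at a mean of 842.4 CPM in Progenitor and a log2 difference of -0.04 (adjusted p = 0.913), and C7, Svep1 and Smoc2 were not called either.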

How the data were processed

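Poly(A) RNA was sequenced from sorted cells, 3 libraries per group. The authors deposited raw read counts per gene, 33352 Ensembl genes by 12 libraries. Per the submitters' processing notes, mm10, the aligner STAR (2.5.2a) and DESeq2 (1.26.0) were used. Which program counted the reads, whether it used strand, and its annotation release are not stated there, so overlapping and antisense genes cannot be told apart. Symbols came from the table. The 12078 rows without one and 26 turned into dates took GENCODE M21 names (GRCm38), and 29 rows kept none. That annotation also gave coordinates and exon overlaps. Deposited normalized and log-scale tables were not used.

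Under R 4.3.3, edgeR 4.0.16 with limma 3.58.1 was fitted to the 19016 genes that filterByExpr kept, with TMM factors, 1 mean per group over all 12 libraries (8 residual degrees of freedom), robust quasi-likelihood F test, two-sided, Benjamini-Hochberg adjustment over all tested genes, called below 0.05. The common biological coefficient of variation was 0.206. The standard error of a log2 difference is its size over the square root of F. CPM uses TMM-scaled library sizes, and library correlations use log2 CPM with a prior count of 2. Counts of amplified cDNA are not independent molecules, so intervals cover counting error only. Depth over the series was 13258631 to 22647175 counts. Replicates of a group differed beyond sampling noise (chi-square per degree of freedom at least 8.27).

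The 45 gene lists were described by counts and medians beside those of all genes, with no test of a list. Members, lists and tests were chosen with earlier results of these data known. Named genes follow a rule: called, with no overlap between the groups, passing over unnamed gene models, the 12 highest and 12 lowest log2 differences at a mean of at least 4 log2 CPM, the 8 largest CPM differences each way, in each list up to 6 called members with the smallest adjusted p and up to 4 not called with the highest level, and a panel of identity genes. Further members named within a list were chosen after their values were seen. On counts simulated at the depth of the 6 libraries and fitted alone (16246 genes, 200 changed), 72.1% of the genes changed by 2-fold were called. Of those changed by 4-fold 100% were called, and the false share among calls was 3.39%. The simulation gave every gene the common coefficient of variation, and both groups the Intermediate means apart from the changed genes. In the data 44.6% of tested genes were called, so these shares describe the simulation and do not carry over to this comparison. Alternatives were other scaling factors and filters, DESeq2 1.42.0, limma-voom, the 6 libraries alone, a replicate block, a test against 2-fold, and leaving out each library. Values of some genes are not reported here.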

Additional observations from a re-analysis of the deposited data

How the results depend on the processing

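Of the genes checked, none that was called in the main fit or in the alternative changed direction. A change of sign in a gene called in neither was not counted. The genes checked numbered 410, or 400 at 1 CPM in 3 libraries and 401 in the 6 libraries alone and with their block. Of the 8481 calls none turned, that is, none was called in the opposite direction in the alternatives run. Higher calls ranged from 3990 (limma-voom) to 4662 (upper-quartile factors, 53.7% of calls higher against 48.1%) and lower calls from 4027 (upper quartile) to 4511 (replicate block), and from 3274 to 4022 higher and 3772 to 4188 lower without single libraries. Tested against 2-fold, 3550 genes were called, 1648 higher and 1902 lower. In all 6 fits without a library 6201 genes kept their call. Same-numbered SMC2 and Intermediate libraries did not deviate together (r = -0.016, -0.148 and -0.0306 over 9586 genes, against -0.0402 to 0.0967 for different numbers). Deviations from a mean of 3 libraries cannot show whether a number marks a shared source. The main fit did not use the numbers as pairs, and the replicate block gave 8839 calls over 12 libraries and 8807 over the 6.

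List medians moved by more than the replicate spread as follows, and the cause was not tested. At 1 CPM in 3 libraries, which tests fewer genes, potassium channels were at 0.87, vasoactive receptors at 1.52, adipogenic regulators at 0.96 and Schwann cell genes at 5.01. In the 6 libraries alone vasoactive receptors were at 1.52 and Schwann cell genes at 5.0, and with the replicate block there at 1.59 and 4.98. The plasma cell median of 1.81 was 1.04 with limma-voom and reversed to -0.80 in the 6 libraries alone and -0.85 with their replicate block. Matrix proteases were at -1.09 with limma-voom. Basement membrane genes were at -0.11 (RLE factors, 1 CPM, DESeq2 and 6 libraries), -0.06 (upper quartile), -0.22 (no filter), -0.32 (limma-voom), -0.31 (replicate block) and -0.29 (block in 6 libraries). The growth factor axes were at -0.84 (RLE factors, 1 CPM, DESeq2 and 6 libraries), -0.76 (upper quartile) and -0.93 (no filter).

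Without single libraries the medians ranged from 4.57 to 4.83 for contractile genes, 1.26 to 1.69 for calcium, 1.23 to 1.63 for potassium channels, 0.97 to 1.88 for vasoactive receptors, 0.58 to 0.89 for Notch, -3.96 to -2.59 for small proteoglycans, -0.37 to -0.06 for basement membrane, -1.25 to -0.55 for proteases, -0.90 to -0.76 for growth factor axes, 2.03 to 2.46 for mature adipocyte, 1.49 to 2.0 for thermogenic, -1.10 to -0.61 for interferon and 1.20 to 2.89 for plasma cell genes. Depth limits genes under about 1 CPM, where a few counts set the fold.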
